A study of Mus musculus with 2 samples.

Results

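Il15, Il15ra, Il18, Il18bp, Il27, Ebi3, Il10, Tgfb1, Tnfsf13b and Il1rn encode cytokines, and partners and inhibitors of cytokines, that myeloid cells make. They were taken as a list of 10 symbols from the 32432 genes counted, without use of their measured values, and each symbol named 1 gene of the table. All 10 were detected, from 1265 UMIs for Tnfsf13b to 80992 for Il1rn over the kept cells. A UMI is a molecular tag that stands for 1 captured transcript.

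Il15 protein is held at the cell surface by the Il15ra chain and shown from there to NK cells and CD8 T cells. Il18 is made as a precursor that caspase-1 cuts, it drives interferon gamma production by T and NK cells, and the secreted protein of Il18bp neutralises it. Il27 and Ebi3 encode the subunits of a cytokine that acts on T cells, Il10 and Tgfb1 encode cytokines that restrain inflammation, Tnfsf13b encodes BAFF, a survival factor of B cells, and Il1rn encodes the antagonist that occupies the interleukin 1 receptor. Monocytes, macrophages and dendritic cells are known sources of these factors in tumours.

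The cells were live CD45+ leukocytes sorted from B16-F10 melanomas of male mice aged 8 to 12 weeks. Each mouse had received 1000 melanoma cells in Matrigel into the skin of both legs on day 0, tamoxifen at 1 mg into the peritoneum on 3 days from day 5, and was sampled on day 14. The Trex1 iKO group was Trex1 fl/fl-R26CreERT2-ki/wt and the Trex1 control group Trex1 wt/fl-R26CreERT2-ki/wt, so that the controls also carried the Cre, 1 floxed allele and the tamoxifen. R26CreERT2 is expressed in most cell types, and the deletion was therefore not restricted to myeloid cells. The design asks how induced loss of Trex1, a DNA-degrading exonuclease that limits interferon responses to DNA, alters the leukocytes of the tumour. Each group held 4 hashtagged samples in 1 sequencing pool. The labels do not say that a hashtag is 1 mouse, so p-values measure only the spread between these samples. Because each genotype filled 1 pool, an effect of the pool and one of the genotype cannot be told apart.

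The samples held 17111065 to 96457227 UMIs, and 22052 cells were kept, with a median per cell of 12983 to 14490.5 UMIs in iKO and 6405 to 11845.5 in control. Trex1 itself had 2 UMIs in all kept cells, both in control 2, so these counts cannot check the labels. The labels call the cells lymphocytes, but 8989 of them were monocyte/macrophage-like, with 11 of 14 markers each detected in over 50% of the cells, from Lyz2 in 99.1% to C1qc in 40.3%. The other myeloid classes were cDC2-like (1068 cells), cDC1-like (235), mature DC-like (612), pDC-like (152) and neutrophil-like (1919), in which the defining marker Ly6g was found in 16.8% of cells. Samples iKO 1 and iKO 2 stood apart: 10 interferon-induced genes (among them Ifit1, Isg15 and Rsad2) summed to 6336 and 6809 CPM (UMIs per 1000000 UMIs of the summed cells) in their monocyte/macrophage-like cells, against 2209 and 2341 in iKO 3 and 4 and 358 to 1224 in the controls. These samples were also the highest of iKO in cDC2-like, Treg-like and mature DC-like cells (in the last 4624, 3913, 3029 and 1213 CPM in iKO 1 to 4). They were not in neutrophil-like cells (4609, 7062, 5690 and 3490) or CD8 T-like cells (456, 594, 547 and 502). The genotype calls in each tested myeloid class are also given without these 2 samples. The lymphoid classes, the class-by-genotype term and the C1q ranges were not fitted without them.

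Promoters show which sequence the genes carry at their starts. RefSeq entries, in build GRCm38.p6, which differs from the GRCm39 build of the counts, matched 7 of the 10 genes with 11 promoters. Il15, Il27 and Il10 had no entry. The 250 bases before the start are shown for the 4 genes with a called difference in a cell class below and for Tnfsf13b, which held the interferon-type repeat. They lie at chr9:50554450-50554699 on the plus strand (Il18), chr17:55952373-55952622 on the plus strand (Ebi3), chr7:102018233-102018482 on the minus strand (Il18bp), chr2:24345121-24345370 on the plus strand (Il1rn, the last of its 3 entries) and chr8:10006383-10006632 on the plus strand (Tnfsf13b, the last of its 2 entries). Capitals mark matches, on either strand, of the motifs found in under 10% of all promoters.
Il18: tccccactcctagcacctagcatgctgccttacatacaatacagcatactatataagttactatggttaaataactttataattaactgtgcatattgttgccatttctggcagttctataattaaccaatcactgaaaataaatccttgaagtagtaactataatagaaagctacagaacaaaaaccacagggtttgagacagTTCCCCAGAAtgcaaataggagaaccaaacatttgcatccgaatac
Ebi3: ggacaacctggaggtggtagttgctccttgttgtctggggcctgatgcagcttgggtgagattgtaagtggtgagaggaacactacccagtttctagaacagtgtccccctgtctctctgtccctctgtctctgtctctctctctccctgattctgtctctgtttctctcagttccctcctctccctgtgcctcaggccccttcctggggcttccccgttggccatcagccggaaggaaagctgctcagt
Il18bp: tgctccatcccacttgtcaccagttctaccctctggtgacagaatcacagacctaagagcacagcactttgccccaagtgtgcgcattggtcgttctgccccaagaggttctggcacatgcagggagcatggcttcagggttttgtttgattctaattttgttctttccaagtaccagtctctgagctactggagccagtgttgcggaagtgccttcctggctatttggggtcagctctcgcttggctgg
Il1rn: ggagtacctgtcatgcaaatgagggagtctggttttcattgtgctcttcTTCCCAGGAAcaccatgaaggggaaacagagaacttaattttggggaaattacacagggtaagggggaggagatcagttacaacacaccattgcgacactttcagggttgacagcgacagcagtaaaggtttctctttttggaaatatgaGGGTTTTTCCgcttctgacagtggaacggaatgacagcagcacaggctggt
Tnfsf13b: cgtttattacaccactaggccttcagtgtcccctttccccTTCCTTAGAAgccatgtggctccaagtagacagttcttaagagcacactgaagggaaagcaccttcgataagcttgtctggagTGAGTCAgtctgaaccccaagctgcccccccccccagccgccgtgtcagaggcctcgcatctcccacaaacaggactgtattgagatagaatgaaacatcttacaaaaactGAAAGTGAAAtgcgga

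Motifs of interferon, STAT, kappa-B, AP-1 and ETS factors were searched on both strands of the 250 bases before each of the 32851 starts in the table, 10 motifs in all. The repeat of interferon response elements, GAAA, then any 2 bases, then GAAA, was present in 2.98% of promoters and, among these genes, only in that of Tnfsf13b, 16 to 7 bases before the start. Its narrower form with NT between the GAAA repeats (0.682% of promoters) matched the same bases, and the forms with CN between them (0.569%) or with GGAA, NT and GAAA (0.594%) matched none of the 11 promoters. The STAT-type motif of TTC, any 4 bases and GAA (5.85%) was found in Il18, 46 to 37 bases before its start, and in Il1rn and Tnfsf13b, while that with 3 bases between them (7.02%) was found in none. The kappa-B-type GGG, any 2 bases and TTTCC (1.41%) was found in Il1rn, 51 to 42 bases before the start shown, and TGAGTCA (4.46%) in Il15ra, Tnfsf13b and Il1rn. The short or loose motifs GGG, any 5 bases and CC (45.8%, in Il15ra, Ebi3, Tgfb1 and Il1rn) and CTTCCT (29.5%, in Il15ra, Il18bp, Ebi3, Tgfb1 and Tnfsf13b) were common in all promoters. The base composition also varied, with 35.6% G and C before Il18 and 56.0% before Ebi3. A match describes letters, not bound sites, and the absence of one says only that the letters are not in this window.

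The mean over all samples was highest in monocyte/macrophage-like cells for Il18, Il18bp, Il27 and Tgfb1, in neutrophil-like cells for Il15, Ebi3, Tnfsf13b and Il1rn, in mature DC-like cells for Il15ra and in Treg-like cells for Il10. Some first places were near ties. Mature DC-like cells were close for Il18bp (42.4 against 42.6 CPM) and Il27 (11.2 against 12.4). So were Treg-like cells for Ebi3 (54.6 against 54.8) and CD8 T-like cells for Tnfsf13b (7.77 against 8.33). The first class of Il18bp, Il27 and Ebi3 changed under another scaling or with doublets kept. Levels are CPM of the UMIs summed over a class in a sample, with the mean ± SD over samples, and classes are ordered by description only, because they were built from the same cells. Values of 1 gene can be compared between classes, but not values of different genes.

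Il15 was highest in neutrophil-like cells, at 133 ± 72.9 CPM in control and 93.6 ± 47.1 in iKO (SD, n = 4). Mature DC-like cells followed at 41.4 ± 5.25 and 63.0 ± 12.6, and monocyte/macrophage-like cells at 15.2 ± 3.98 and 27.4 ± 9.75. In iKO the means of the leading pair of classes differed by less than the larger SD, and in control they did not. Its receptor chain Il15ra was highest in mature DC-like cells, at 125 ± 12.8 CPM in control and 125 ± 16.0 in iKO, far above CD8 T-like cells (17.0 ± 0.948 and 16.2 ± 3.28) and monocyte/macrophage-like cells (8.79 ± 1.53 and 17.8 ± 9.74). Mature DC-like cells, the dendritic cells that carry antigen to lymph nodes, were thus first or second of all classes for both the cytokine and its presenting chain.

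Il18 was highest in monocyte/macrophage-like cells in both genotypes, at 42.0 ± 9.25 CPM in control and 76.6 ± 12.2 in iKO. This was beyond the spread of neutrophil-like cells (15.1 ± 4.04 and 31.4 ± 15.1), the next class among those with at least 3 samples. In control cDC1-like cells, with only 2 samples, Il18 was at 30.4 ± 13.9, within the spread of monocyte/macrophage-like cells. Its inhibitor Il18bp was spread more widely. In control the means of mature DC-like (31.3 ± 12.5) and monocyte/macrophage-like cells (19.3 ± 7.31) differed by less than the larger SD, as did those of cDC2-like (10.5 ± 4.81) and neutrophil-like cells (8.57 ± 0.775). In iKO monocyte/macrophage-like (65.9 ± 51.0), mature DC-like (53.5 ± 25.7), cDC2-like (49.9 ± 39.1) and neutrophil-like cells (38.2 ± 21.1) lay within the spread of their neighbours.

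The subunits of the Il27 cytokine were led by different classes in control. Il27 was led in control by monocyte/macrophage-like cells at 5.89 ± 2.12 CPM, beyond the spread of neutrophil-like cells at 2.60 ± 1.58. In iKO mature DC-like cells (21.5 ± 22.1) and monocyte/macrophage-like cells (18.9 ± 12.3) could not be ordered. Ebi3 was at like levels in neutrophil-like (46.7 ± 11.0 in control, 63.0 ± 12.4 in iKO), Treg-like (46.5 ± 5.40, 62.7 ± 4.63) and mature DC-like cells (36.3 ± 17.5, 61.6 ± 20.0), where neighbours lay within their spread, and lower in monocyte/macrophage-like cells (16.0 ± 2.34, 27.4 ± 1.28).

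Il10 was highest in Treg-like cells, at 42.8 ± 35.4 CPM in control and 87.5 ± 40.4 in iKO. Monocyte/macrophage-like cells came next at 3.30 ± 2.44 and 8.55 ± 3.05, within the spread of the class after them. Tgfb1 was detected in every class and was highest in monocyte/macrophage-like cells (315 ± 56.7 and 344 ± 13.3). NK-like cells (239 ± 12.7 and 246 ± 44.6, only 2 samples each) and B-like cells (209 ± 52.3 and 227 ± 9.71) came after them. Tgfb1 was lowest in mature DC-like cells (76.7 ± 33.5 and 66.7 ± 15.6). Tnfsf13b was sparse, at 9.82 ± 3.82 and 6.84 ± 1.57 CPM in neutrophil-like and 8.73 ± 1.58 and 6.80 ± 1.26 in CD8 T-like cells, within each other's spread. Il1rn was highest in neutrophil-like cells (1029 ± 243 and 1143 ± 610), followed by monocyte/macrophage-like cells (275 ± 46.6 and 509 ± 256) and mature DC-like cells (99.8 ± 16.7 and 167 ± 129).

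**Figure D1:**
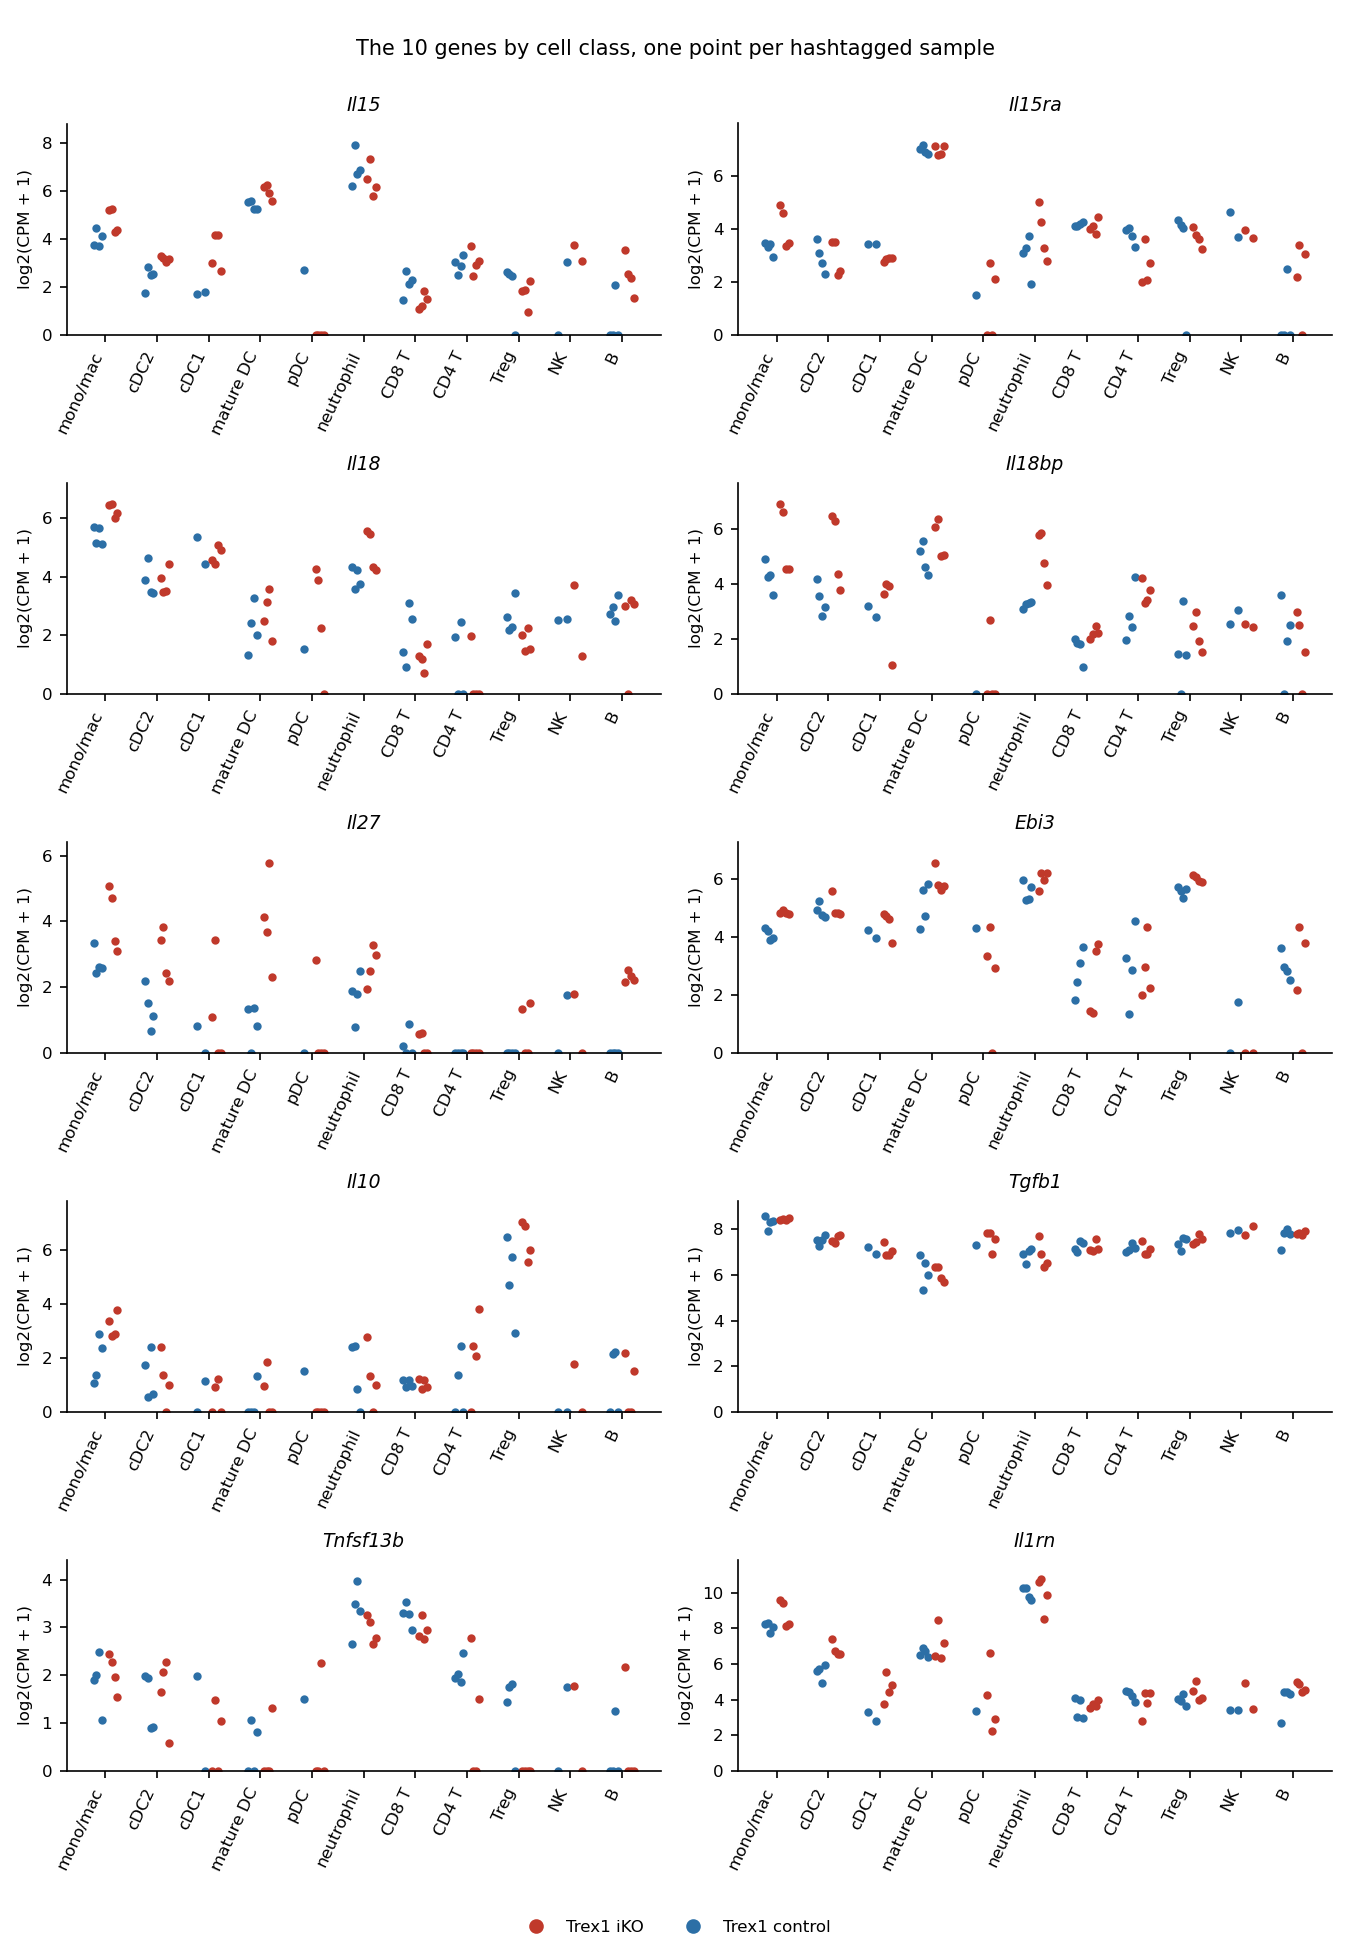
Level of each gene, as log2(CPM + 1) on the vertical axis, in each cell class on the horizontal axis, with 1 point per hashtagged sample that had at least 20 cells of the class (red, Trex1 iKO; blue, Trex1 control). Il15ra peaks in mature DC-like cells near 125 CPM, Il18 in monocyte/macrophage-like cells, Il10 in Treg-like cells and Il1rn in neutrophil-like cells.

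Shares of UMIs also depend on how many cells of a class a sample held. Neutrophil-like cells made up 1.45% to 6.23% of the kept cells of an iKO sample and 10.4% to 21.3% of those of a control, and monocyte/macrophage-like cells 38.3% to 53.9% and 23.0% to 52.6%. Of all Il15 UMIs, monocyte/macrophage-like cells held 35.2% ± 11.4 in control and 71.9% ± 8.78 in iKO, and neutrophil-like cells 45.2% ± 11.2 and 9.18% ± 4.46 (SD, n = 4). Il1rn had a like pattern, with 57.0% ± 10.9 and 85.8% ± 5.95 in monocyte/macrophage-like cells and 34.8% ± 9.93 in control neutrophil-like cells. Monocyte/macrophage-like cells also held most Il18 (77.8% ± 9.20 and 92.5% ± 1.88), Il27 (83.2% ± 4.57 and 82.8% ± 11.6), Il18bp (64.7% ± 9.39 and 79.3% ± 7.72) and Tgfb1 (61.4% ± 14.1 and 69.4% ± 8.74). Il10 was divided between monocyte/macrophage-like cells (38.4% ± 33.9 and 54.4% ± 16.9) and Treg-like cells (40.1% ± 25.1 and 38.8% ± 14.5). Monocyte/macrophage-like cells held the largest share of Ebi3 too (37.0% ± 9.23 and 60.5% ± 3.48), followed in control by neutrophil-like (17.8% ± 7.04) and cDC2-like cells (17.2% ± 5.45). Il15ra was divided among monocyte/macrophage-like (26.1% ± 9.17 and 44.0% ± 8.16), mature DC-like (37.2% ± 9.61 and 25.1% ± 18.0) and CD8 T-like cells (14.3% ± 10.2 and 20.8% ± 15.8). Tnfsf13b was divided among monocyte/macrophage-like (33.3% ± 8.34 and 46.6% ± 17.6), CD8 T-like (31.3% ± 19.1 and 40.9% ± 26.1) and neutrophil-like cells (21.1% ± 10.8 and 4.29% ± 3.46). These shares were not tested. They depend on the numbers of cells and on the levels and depth within cells, and these parts were not separated.

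**Figure D2:**
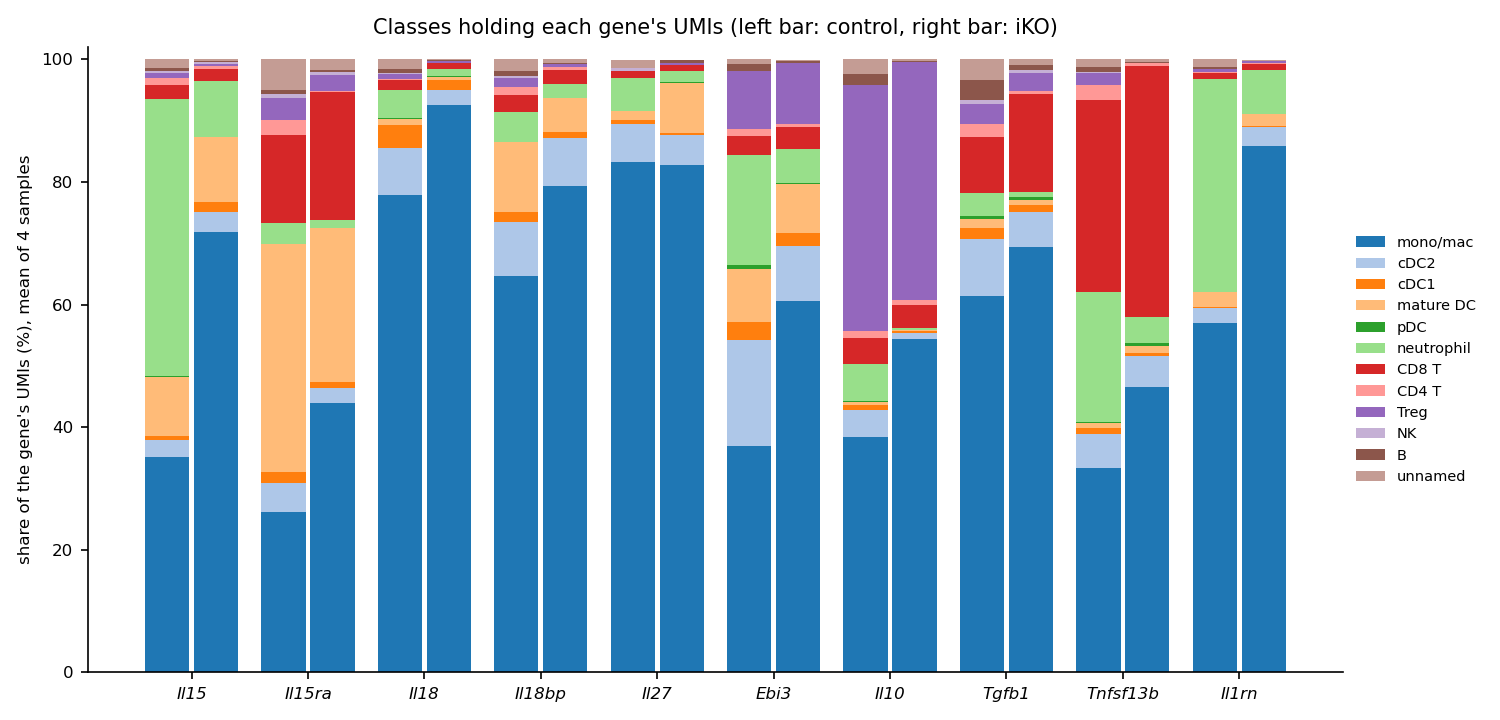
Share of each gene's UMIs, in percent on the vertical axis, held by each cell class as a stacked bar, the mean of 4 samples per genotype (left bar of each pair, control; right bar, iKO). The neutrophil-like share of Il15 is 45.2% in control and 9.18% in iKO, and that of monocyte/macrophage-like cells 35.2% and 71.9%.

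Over the whole sample the composition and the levels within cells add up. Il15 in all kept cells was at 18.6, 18.2, 16.3 and 18.2 CPM in iKO 1 to 4 and 13.2, 32.2, 13.1 and 20.8 in control 1 to 4, so the genotypes overlapped. Il18 was at 39.8, 34.4, 39.7 and 47.2 in iKO and 23.8, 18.4, 23.5 and 24.8 in control, without overlap. Il27 was at 15.7, 10.4, 8.31 and 5.61 in iKO and 4.22, 1.99, 2.14 and 3.75 in control, also without overlap. No test was made on these mixtures.

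In monocyte/macrophage-like cells Il18 and Ebi3 were higher in Trex1 iKO than in control and passed the test, by 1.79-fold and 1.67-fold. The other 8 genes did not pass. All 10 had a log2 fold change above 0, and 8 had an unadjusted p under 0.05. The share of all tested genes under that unadjusted p was not computed, here or for such counts below, so they have no background. Calls are those of edgeR's quasi-likelihood test on UMIs summed per sample, at a Benjamini-Hochberg adjusted p under 0.05 over the 11698 genes tested in the class. Of all genes tested there, 6.31% were called higher and 5.78% lower, and the median log2 fold change was 0.00, against 2 of 10 and a median of 0.85 for these genes. Levels of all iKO samples lay above all control samples for 14.8% of genes and below them for 6.36%, and for 2 of the 10 genes, again Il18 and Ebi3, above. Such shares were not computed for the other classes or for whole samples, so a lack of overlap there has no background. The clusters with the largest shares of the class differed between the genotypes: clusters 2, 11, 9 and 18 held 17.3%, 12.3%, 10.8% and 9.39% of the iKO cells, and clusters 7, 1, 16 and 23 held 19.8%, 19.5%, 15.4% and 10.9% of the control cells. Summed markers of other cells also differed between the genotypes in monocyte/macrophage-like profiles, without overlap for 5 lists. Lower in iKO were the 8 neutrophil markers, all with UMIs in every sample (140 to 316 CPM in iKO, 465 to 563 in control), the 8 mature DC markers (15.3 to 18.9, 22.1 to 62.4) and the 3 platelet markers (1.67 to 27.1, 30.1 to 153). Higher in iKO were the 7 pDC markers (645 to 1031, 255 to 423) and the 4 endothelial markers (21.9 to 42.3, 8.18 to 21.0). Their part in the results was not tested.

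Il15 was at 35.4, 36.2, 18.4 and 19.6 CPM in iKO 1 to 4 and 12.5, 20.5, 11.8 and 16.1 in control 1 to 4. The samples iKO 1 and 2 were high, and iKO 3 and 4 lay below control 2. The log2 fold change was 0.83 ± 0.30 (SE) with an edgeR adjusted p of 0.0941. Il15ra was also high in iKO 1 and 2, at 28.8, 23.3, 9.24 and 10.0 CPM in iKO and 9.92, 9.05, 9.65 and 6.56 in control, with a log2 fold change of 1.04 ± 0.39 (adjusted p 0.111). Without iKO 1 and 2, an alternative chosen after seeing the data, the log2 fold changes were 0.21 for Il15 and 0.05 for Il15ra (edgeR adjusted p 0.636 and 0.904).

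Il18 was at 85.4, 88.1, 62.5 and 70.5 CPM in iKO 1 to 4 and 50.5, 34.6, 49.6 and 33.5 in control 1 to 4. Every iKO sample was above every control sample, and iKO 1 and 2 were again the highest. The log2 fold change was 0.84 ± 0.18 (edgeR adjusted p 0.0209). The call was lost without iKO 1 (adjusted p 0.0595), iKO 2 (0.0621), control 2 (0.0643) or control 4 (0.0608), and without iKO 1 and 2 together the log2 fold change was 0.56 (0.144).

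Il18bp, the inhibitor of Il18, was at 120, 98.2, 22.5 and 22.2 CPM in iKO 1 to 4 and 29.0, 18.1, 19.1 and 11.2 in control 1 to 4. The high values were those of iKO 1 and 2, while iKO 3 and 4 lay within the control range. The log2 fold change of 1.79 ± 0.60 did not pass (edgeR adjusted p 0.0815), and it was 0.12 without iKO 1 and 2 (0.859).

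Il27 was at 33.1, 25.2, 9.61 and 7.65 CPM in iKO 1 to 4 and 9.04, 4.44, 5.06 and 5.02 in control 1 to 4. Only iKO 4 lay below a control, control 1. The log2 fold change was 1.68 ± 0.51 (edgeR adjusted p 0.0582), and 0.43 without iKO 1 and 2 (0.446). Its partner Ebi3 behaved differently across samples, at 26.9, 29.3, 26.9 and 26.5 CPM in iKO and 18.5, 17.5, 13.6 and 14.5 in control. The iKO samples lay close together and all were above the controls, with a log2 fold change of 0.74 ± 0.12 (adjusted p 0.00916). The call of Ebi3 held in each fit that left out 1 sample, and without iKO 1 and 2 the log2 fold change was 0.63 (0.0706). It was also lost in a gate on single cells by lineage markers (0.70, 0.0827) and in C1q-high cells alone (0.50, 0.156).

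Il10 was at 9.28, 5.96, 6.41 and 12.6 CPM in iKO 1 to 4 and 1.09, 1.59, 6.35 and 4.16 in control 1 to 4. The genotypes overlapped only through control 3, which lay above iKO 2. The log2 fold change was 1.28 ± 0.44 (edgeR adjusted p 0.0875) and 1.38 without iKO 1 and 2 (0.204). Tgfb1, made as a latent protein by most leukocytes, was at 336, 344, 334 and 363 CPM in iKO and 376, 239, 317 and 327 in control, with a log2 fold change of 0.08 ± 0.12 (adjusted p 0.700).

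Tnfsf13b was sparse, at 4.45, 3.83, 2.93 and 1.92 CPM in iKO 1 to 4 and 2.72, 3.02, 4.59 and 1.10 in control 1 to 4, with a log2 fold change of 0.27 ± 0.42 (edgeR adjusted p 0.703). Il1rn was at 778, 678, 277 and 305 CPM in iKO and 307, 315, 213 and 266 in control. As for Il18bp, iKO 1 and 2 were high and iKO 3 and 4 lay within the control range. Its log2 fold change was 0.87 ± 0.35 (adjusted p 0.135), and -0.03 without iKO 1 and 2 (0.942).

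**Figure D3:**
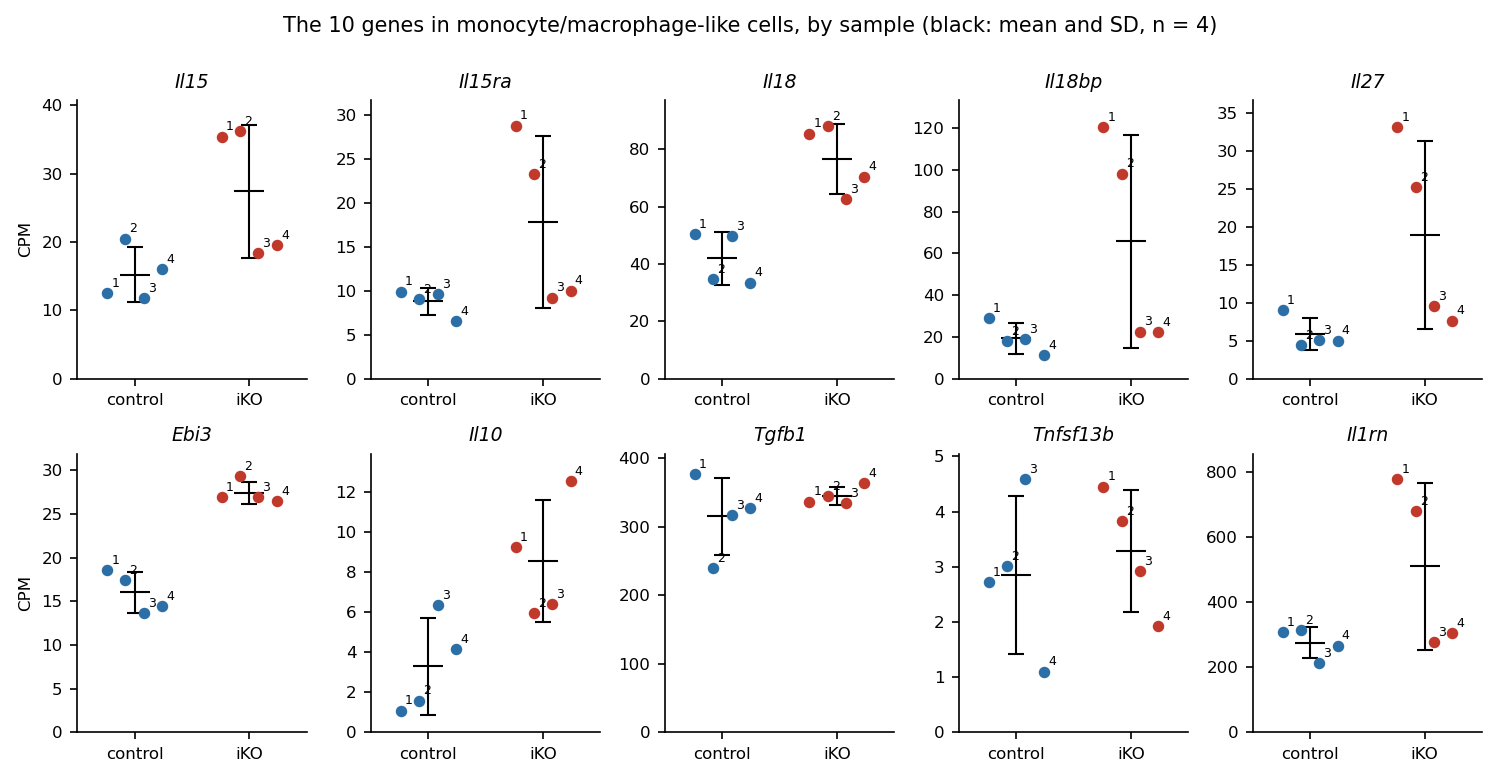
Level of each gene in monocyte/macrophage-like cells, in CPM on the vertical axis from 0, in the 4 control samples (blue) and the 4 iKO samples (red), with the sample number beside each point and the mean and SD in black. For Il18bp, Il15ra and Il1rn, iKO 1 and 2 lie apart from iKO 3 and 4, while the iKO samples of Ebi3 lie together between 26.5 and 29.3 CPM, above the controls.

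In the other myeloid classes 1 gene each was called in cDC2-like and neutrophil-like cells, and none in mature DC-like cells. The classes cDC1-like (4 iKO and 2 control samples with at least 20 cells), pDC-like (4 and 1) and NK-like (2 and 2) had too few samples for a test.

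In cDC2-like cells, 8 of the 10 genes passed the low-count filter, all but Il10 and Tnfsf13b. Il1rn was called higher, at 166, 104, 91.9 and 93.5 CPM in iKO 1 to 4 and 47.2, 52.8, 29.5 and 60.2 in control 1 to 4. All iKO samples lay above all controls, with a log2 fold change of 1.28 ± 0.25, 2.43-fold (edgeR adjusted p 0.0356). The call was lost without iKO 1 (adjusted p 0.0822), iKO 2 (0.101), control 1 (0.0751), control 2 (0.132), control 3 (0.0889) or control 4 (0.0580), and without iKO 1 and 2 together (log2 fold change 0.95, adjusted p 0.139). Of the 9414 genes tested in the class, 1.20% were called higher and 0.542% lower. The median log2 fold change was 0.48 over the 8 genes and 0.00 over all genes.

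Il18bp in cDC2-like cells was at 88.6, 78.3, 19.7 and 12.9 CPM in iKO and 17.1, 10.8, 6.08 and 8.04 in control, with a log2 fold change of 2.37 ± 0.63 that did not pass (edgeR adjusted p 0.0899). Il27 was at 9.90, 13.1, 4.38 and 3.54 in iKO and 3.54, 1.89, 0.579 and 1.19 in control (2.33 ± 0.59, adjusted p 0.0772). Both were highest in iKO 1 and 2, as in monocyte/macrophage-like cells. The control values of Il27 rest on few UMIs, in profiles of 1695067 to 3455442 UMIs. Il15 was low in this class, at 7.11 to 8.61 CPM in iKO and 2.36 to 6.13 in control, without overlap but also without a call (0.81 ± 0.26, adjusted p 0.145).

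In neutrophil-like cells, 8 genes passed the filter, all but Il27 and Il10. Il18bp was called higher, at 54.7, 57.2, 26.3 and 14.6 CPM in iKO 1 to 4 and 7.44, 8.73, 8.93 and 9.18 in control 1 to 4. The controls lay close together and below every iKO sample, with a log2 fold change of 2.20 ± 0.37, 4.60-fold (edgeR adjusted p 0.00835). The call held in each fit without 1 sample and was lost without iKO 1 and 2 together (1.42, adjusted p 0.128). Of the 6836 genes tested, 1.40% were called higher and 0.132% lower, and the median log2 fold change was 0.38 over the 8 genes and 0.01 over all.

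Il18 in neutrophil-like cells was at 46.1, 42.7, 19.3 and 17.5 CPM in iKO and 19.1, 10.9, 17.9 and 12.4 in control (log2 fold change 1.10 ± 0.33, edgeR adjusted p 0.175). Il15, which was highest in this class, was at 89.2, 161, 54.3 and 69.9 in iKO and 72.3, 239, 104 and 117 in control. Its samples overlapped and its log2 fold change of -0.38 ± 0.36 had the opposite sign to that in monocyte/macrophage-like cells (adjusted p 0.733). Il1rn was at 1534, 1720, 373 and 946 CPM in iKO and 1228, 1243, 874 and 769 in control (0.20 ± 0.34, adjusted p 0.878). The depth was lower in this class, with 347379 to 1311889 UMIs in an iKO profile and 1231303 to 2178637 in a control profile.

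In mature DC-like cells, 6 genes passed the filter: Il15, Il15ra, Il18bp, Ebi3, Tgfb1 and Il1rn. edgeR and DESeq2 each called 0 of them, and 3 (Il15, Il18bp and Ebi3) had an unadjusted edgeR p under 0.05. Of 7188 genes tested, 0.0139% were called higher and 0.0278% lower by edgeR, so few genes passed in this class at all. The median log2 fold change was 0.70 over the 6 genes and -0.01 over all. Il15 was at 71.1, 74.8, 59.3 and 46.9 CPM in iKO 1 to 4 and 45.3, 46.5, 36.6 and 37.1 in control 1 to 4, without overlap (log2 fold change 0.65 ± 0.18, edgeR adjusted p 0.173). Il15ra was at 140, 110, 113 and 138 in iKO and 127, 143, 118 and 114 in control, with a log2 fold change of 0.04 ± 0.13 (adjusted p 0.935). The class with the most Il15ra was thus one in which its level overlapped fully between genotypes.

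Il27 in mature DC-like cells did not pass the low-count filter. It was at 16.6, 11.7, 53.7 and 3.95 CPM in iKO 1 to 4 and 1.51, 0, 1.56 and 0.757 in control 1 to 4. All iKO samples lay above all controls, and the highest was iKO 3, not iKO 1 or 2. The control values rest on very few UMIs, in profiles of 662236 to 1321319 UMIs, and iKO 3 held only 40 cells of the class. Ebi3, its partner, was at 91.4, 54.0, 48.2 and 52.8 in iKO and 18.1, 47.6, 24.9 and 54.5 in control (log2 fold change 0.75 ± 0.32, edgeR adjusted p 0.365).

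**Figure D4:**
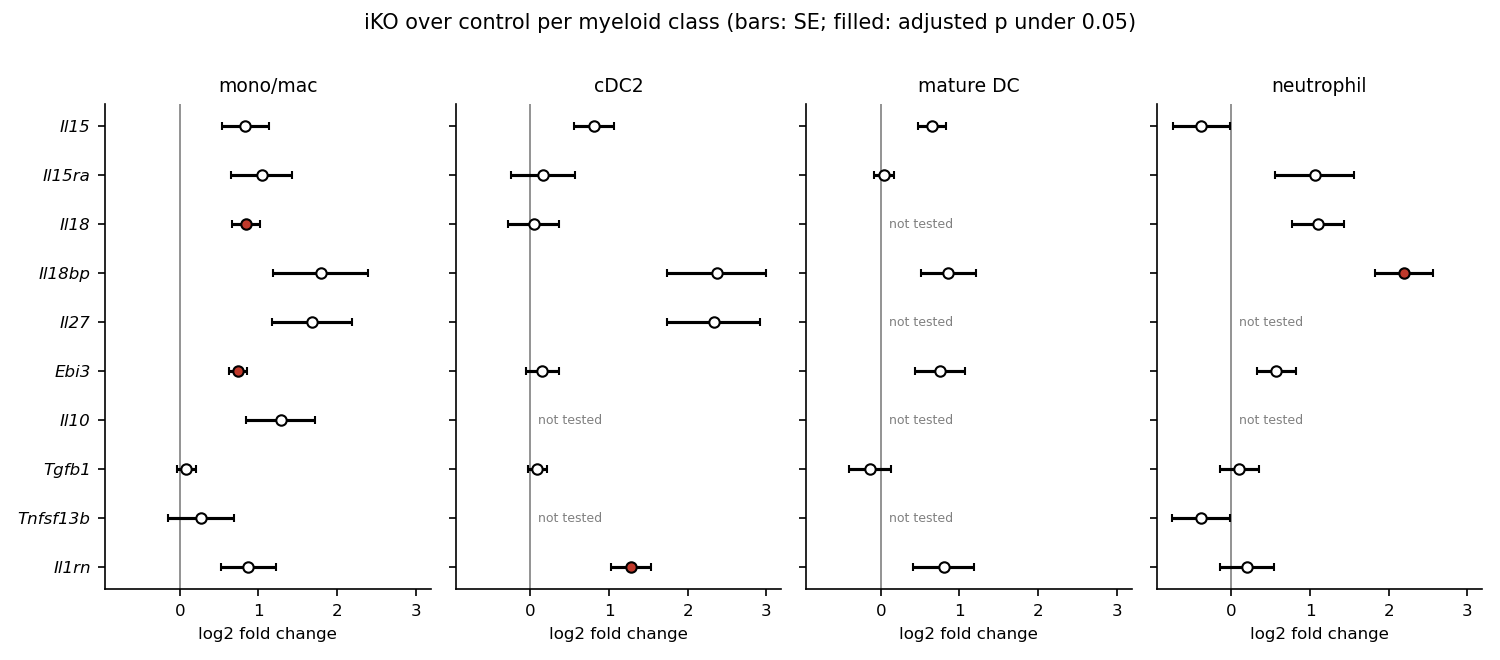
log2 fold change of Trex1 iKO over control (horizontal axis, bars show the SE) for each gene in 4 myeloid classes, with filled points for an edgeR adjusted p under 0.05. Filled are Il18 and Ebi3 in monocyte/macrophage-like cells, Il1rn in cDC2-like cells and Il18bp in neutrophil-like cells; genes below the low-count filter are marked as not tested.

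Lymphoid classes carried some of the genes too, and edgeR called none of the tested ones there. Tested were 5 genes in CD8 T-like cells, 5 in Treg-like cells and Tgfb1 alone in CD4 T-like and B-like cells. Genes called in either direction made up 5.35% of 9301 in CD8 T-like, 2.59% of 5742 in CD4 T-like, 1.46% of 7862 in Treg-like and 2.91% of 3541 in B-like cells. An unadjusted p under 0.05 was found for Ebi3 and Il10 in Treg-like cells and for none in the others, and DESeq2 also called 0 genes in the 4 classes. Treg-like Il10 was at 128, 115, 45.0 and 61.6 CPM in iKO 1 to 4 and 88.0, 24.8, 51.9 and 6.56 in control 1 to 4 (log2 fold change 1.05 ± 0.45, edgeR adjusted p 0.290), with overlap. Treg-like Ebi3 was at 68.2, 64.6, 60.0 and 57.8 in iKO and 51.8, 46.0, 39.3 and 49.2 in control, without overlap (0.44 ± 0.15, adjusted p 0.194). Il15ra in CD8 T-like cells, the cells that receive Il15 signals, was at 15.0, 16.4, 12.8 and 20.6 in iKO and 16.2, 16.3, 17.1 and 18.2 in control (0.00 ± 0.15, adjusted p 0.999).

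Whether the genotype difference itself differed between classes was tested as a class-by-genotype term with the sample as a block, monocyte/macrophage-like cells against each other class. Of all genes, this term was called for 0.793% against cDC2-like, 0.0648% against mature DC-like, 0.00946% against neutrophil-like, 0.681% against CD8 T-like, 0.426% against CD4 T-like, 1.20% against Treg-like and 0.545% against B-like cells. Among the 10 genes, 1 was called: Il15 against CD8 T-like cells, where the difference of the log2 fold changes was 2.37 ± 0.44 (edgeR adjusted p 0.0462). Il15 in CD8 T-like cells was at 1.07, 1.27, 2.57 and 1.79 CPM in iKO and 1.71, 5.30, 3.34 and 3.84 in control, from 4 to 56 UMIs per sample. The low-count filter of this term took both classes together. Il15 could thus pass by its level in monocyte/macrophage-like cells alone, and no class difference is concluded from the call. The call held without iKO 3 (adjusted p 0.0257) or control 1 (0.0418) and was lost without iKO 1 (0.133), iKO 2 (0.174), iKO 4 (0.0507), control 2 (0.174), control 3 (0.125) or control 4 (0.132). Against neutrophil-like cells the difference for Il15 was 1.10 ± 0.25 and did not pass (adjusted p 0.146). Against the other myeloid classes no gene passed, so the calls of Il1rn in cDC2-like cells (difference -0.55 ± 0.23, adjusted p 0.327) and Il18bp in neutrophil-like cells (-0.56 ± 0.39, adjusted p 0.832) are not shown to be particular to those classes. Without the low-count filter the differences of Il1rn against cDC2-like cells (-0.53, adjusted p 0.0243) and of Il15 against neutrophil-like cells (1.11, adjusted p 0.00747) were called.

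Receptors, partners and processing genes of the same cytokines were a list of 54 genes, of which 45 were tested in monocyte/macrophage-like cells. There 8 were called higher, 3 were called lower and 34 did not pass, with a median log2 fold change of 0.14 against 0.00 over all genes and a background of 6.31% called higher and 5.78% lower. In the Il15 pathway Il2rg, the common gamma chain, rose from 79.7 ± 19.6 to 162 ± 45.5 CPM (log2 fold change 0.99 ± 0.24, edgeR adjusted p 0.0319). Around Il18, Casp1, the protease that cuts its precursor, rose from 59.3 ± 9.85 to 117 ± 41.5 (0.96 ± 0.26, adjusted p 0.0448), and so did Myd88, the adaptor of its receptor (69.2 ± 12.7 to 135 ± 20.4, adjusted p 0.0110), and Gsdmd, which forms the membrane pores through which such cytokines leave the cell (61.6 ± 10.2 to 95.5 ± 14.9, adjusted p 0.0439). Il10ra, the ligand-binding chain of the Il10 receptor, rose from 63.3 ± 12.1 to 103 ± 19.0 (log2 fold change 0.68 ± 0.18, edgeR adjusted p 0.0399).

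Genes that hold or release latent Tgfb1 moved in both directions. Nrros, which tethers latent Tgfb1 on myeloid cells, rose from 135 ± 10.4 to 188 ± 9.76 CPM (log2 fold change 0.43 ± 0.07, edgeR adjusted p 0.0111), and Itgav, an integrin chain that activates it, from 46.8 ± 2.20 to 62.1 ± 1.17 (0.36 ± 0.07, adjusted p 0.0176). Lrrc32, its tether on regulatory T cells, fell from 1.31 ± 0.438 to 0.359 ± 0.149 (adjusted p 0.0120) and Ltbp3, a binding protein of latent Tgfb1, from 1.18 ± 0.191 to 0.394 ± 0.132 (adjusted p 0.0104), both at very low levels. Smad7, an inhibitor of Tgfb1 signalling, fell from a mean of 55.9 to 29.6 (log2 fold change -0.94 ± 0.18, adjusted p 0.0142). Without iKO 1 and 2 edgeR called 1 gene of the list, in the lower direction. The other calls of the list, like those of Il18 and Ebi3, did not hold in that fit, which keeps 2 iKO samples.

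Within the class the genes marked different clusters of the 13, which are described here without a test because the clusters come from these cells. Shares from iKO are to be read against the class, mostly iKO cells itself. It held 1854, 2191, 655 and 1306 cells in iKO 1 to 4 and 610, 459, 623 and 1291 in control 1 to 4. Cluster 2, led by Cxcl10, Rsad2 and Ifit2, drew 95.9% of its cells from iKO and held the most Il15 (74.6 CPM), Il15ra (55.0), Il18 (152) and Il27 (58.1). Cluster 11, led by Cd72 and Slamf9 and 93.4% from iKO, held the most Il18bp (176) and Il10 (15.2). Cluster 18, led by Il1rn itself with Nos2 and 90.1% from iKO, held 1501 CPM of Il1rn. Clusters 22 and 21, led by Ace and Ear2, genes of patrolling monocytes, held the most Ebi3 (64.4 and 52.5), where cluster 2 held 21.3. Cluster 16, led by Pf4 and Mrc1 and with 36.7% of its cells from iKO, was the second in Il10 (13.4).

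**Figure D5:**
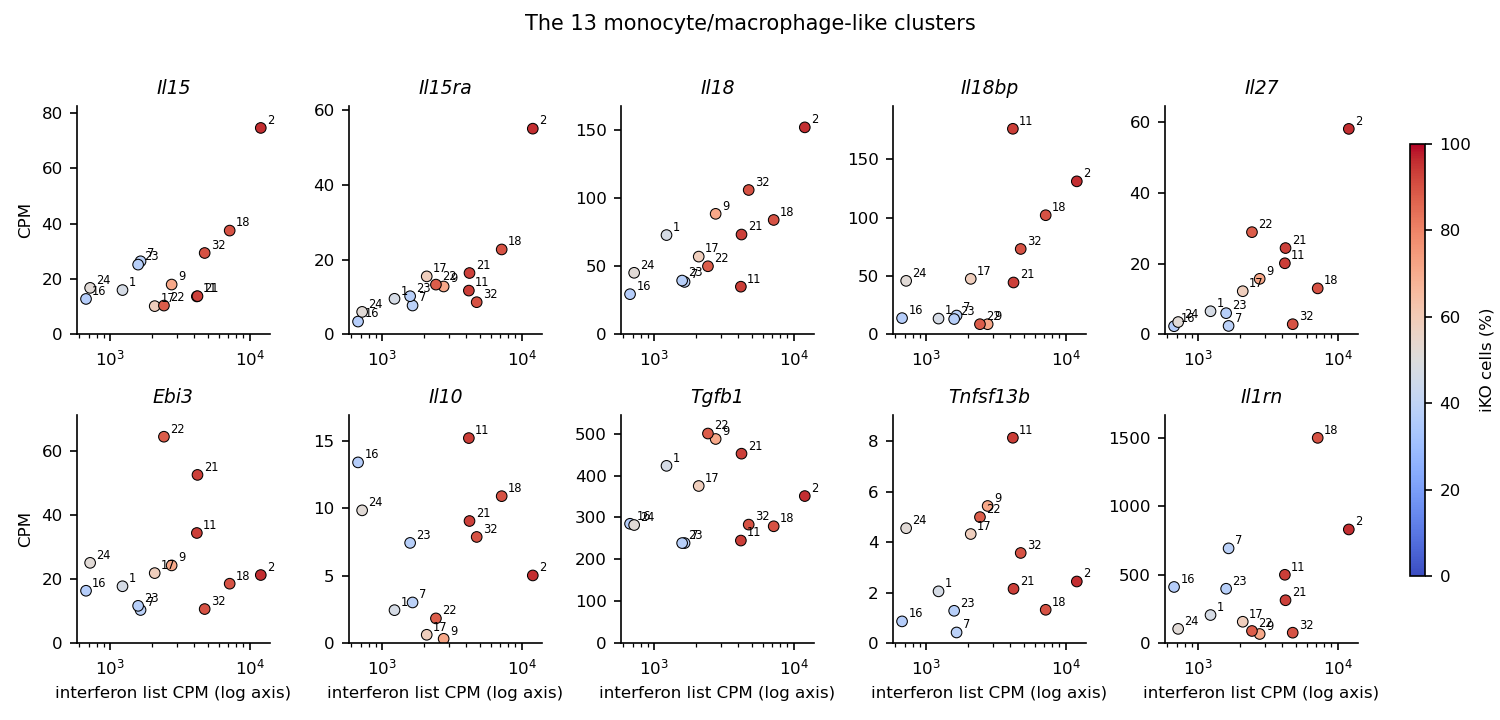
The 13 monocyte/macrophage-like clusters, 1 point each with its number, with the CPM summed over 10 interferon-induced genes on the horizontal log axis, the CPM of each gene on the vertical axis from 0 and the percent of cells from iKO as colour. Cluster 2, at the right end, is the highest for Il15, Il15ra, Il18 and Il27, and clusters 21 and 22 are the highest for Ebi3.

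Across the 13 clusters the log level of the interferon-induced genes and that of each gene had a Pearson r of 0.86 for Il15ra, 0.72 for Il18, 0.70 for Il27, 0.63 for Il18bp and 0.60 for Il15, and of 0.34 for Il1rn, 0.18 for Tnfsf13b, 0.16 for Ebi3, 0.12 for Tgfb1 and 0.046 for Il10. These describe 13 clusters that share the same 8 samples and depth, and are no test. With the share of C1q-high cells in a cluster, r was 0.62 for Il10 and -0.65 for Tgfb1. C1q-high cells, those with at least 0.1% of their UMIs from C1qa, C1qb and C1qc, made up 23.9% to 27.0% of the class in iKO and 30.0% to 37.3% in control, and 8.28% of cells lay between 0.5 and 2 times that threshold.

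C1q-high cells, the range with most macrophage character, had higher mean levels of Il10 and Il18bp than C1q-low cells, and lower mean levels of Il18 and Tgfb1. Il10 was at 13.4 ± 5.05 and 4.94 ± 3.30 CPM in C1q-high cells of iKO and control and at 6.51 ± 2.35 and 2.24 ± 1.98 in C1q-low cells (SD, n = 4). Il18bp was at 98.7 ± 79.8 and 34.1 ± 16.9 in C1q-high and 52.2 ± 39.2 and 10.7 ± 3.06 in C1q-low cells. Il18 was at 49.8 ± 3.93 and 33.4 ± 10.9 in C1q-high and 87.9 ± 15.5 and 47.8 ± 7.24 in C1q-low cells. Tgfb1 was at 271 ± 25.3 and 267 ± 23.1 in C1q-high and 376 ± 8.89 and 343 ± 75.5 in C1q-low cells. In C1q-high cells alone edgeR called 0 of the 10 genes, with 6 at an unadjusted p under 0.05, and in C1q-low cells it called 4: Il18, Ebi3, Il18bp and Il27. C1q-high cells were only 2510 of the 8989 cells, and over all genes fewer were called in them than in the class. The shares of all tested genes called in each range are not given, so the counts of 0 and 4 have no background and are not compared. Whether the genotype difference differed between C1q-high and C1q-low cells was not tested.

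Detection per cell was compared after each cell was thinned to 4000 UMIs, which left out 219 iKO and 175 control cells of the class. Il18 was then detected in 23.8% ± 3.42 of iKO and 15.9% ± 3.09 of control cells (53.0% ± 1.54 and 36.3% ± 6.75 before thinning), and Ebi3 in 10.6% ± 0.972 and 6.20% ± 1.81 (29.8% ± 1.52 and 18.3% ± 2.36). Il18bp was detected in 17.3% ± 11.3 and 5.89% ± 2.01 (36.4% ± 17.1 and 16.0% ± 4.43), and Il27 in 6.82% ± 4.54 and 2.34% ± 0.835 (18.7% ± 9.18 and 6.60% ± 1.80). Il15 was detected in 9.36% ± 2.59 and 5.80% ± 1.56 (24.7% ± 2.80 and 15.2% ± 3.49), and Il15ra in 6.63% ± 2.78 and 3.45% ± 0.799 (18.6% ± 6.08 and 9.77% ± 0.451). In B-like cells thinned in the same way, of a median 4012 UMIs before thinning against 14478 in the class, the shares were 1.85% for Il18, 2.47% for Ebi3, 0.206% for Il18bp, 0.412% for Il27, 1.23% for Il15 and 1.03% for Il15ra, below those in monocyte/macrophage-like cells. In CD8 T-like cells, which carry Il15ra themselves, it was detected in 6.64%. Tgfb1 (69.3% ± 0.825 and 65.8% ± 10.0, B-like 56.4%) is expressed by most leukocytes. For Il10 (2.24% ± 0.162 and 1.15% ± 0.646, B-like 0.617%) and Tnfsf13b (1.23% ± 0.158 and 1.35% ± 0.649, against 3.42% in CD8 T-like cells) the thinned shares were near that of single UMIs, and no order is read from them.

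Partner genes were seen together in few thinned cells, a share that also depends on how often each gene was detected alone. Il27 and Ebi3, which encode 1 cytokine together, were detected together in 1.29%, 1.52%, 0.474% and 0.708% of cells in iKO 1 to 4 and in 0.173%, 0%, 0% and 0.161% in control 1 to 4. The genotypes did not overlap (difference 0.915 percentage points, two-sided exact permutation p = 0.0286, the smallest that 4 against 4 allows, 0.0857 after adjustment over 3 pairs of genes). Il18 and Il18bp were detected together in 7.53%, 7.23%, 1.74% and 2.12% in iKO and 1.04%, 1.24%, 1.88% and 0.725% in control (exact permutation p = 0.0571, adjusted 0.0857). Il15 and Il15ra were detected together in 2.75%, 1.85%, 0.158% and 0.943% in iKO and 0%, 0.248%, 0% and 0.322% in control (exact permutation p = 0.0857, adjusted 0.0857). None passed after adjustment. Among iKO samples, Ebi3 was found in 10.7% to 24.3% of cells with Il27 and 9.23% to 11.4% of those without. Il18bp was found in 8.80% to 28.3% of cells with Il18 and 6.89% to 29.5% of those without. Il15ra was found in 2.27% to 23.2% of cells with Il15 and 3.90% to 8.16% of those without. The tests of joint shares did not adjust for the detection of each gene alone. Without thinning the differences were 4.59, 14.7 and 4.38 percentage points and each had an adjusted exact permutation p of 0.0286.

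The balance of partner to cytokine was taken as the log2 ratio of summed UMIs in monocyte/macrophage-like cells, which is free of scaling between samples. That of Il18bp to Il18 was 0.50, 0.16, -1.47 and -1.66 in iKO 1 to 4 and -0.80, -0.93, -1.38 and -1.57 in control 1 to 4. In iKO 1 and 2 the inhibitor had more UMIs than the cytokine, and the ratios of iKO 3 and 4 were among the 4 lowest of the 8 samples (difference of means 0.55, exact permutation p = 0.400, adjusted over 4 ratios 0.533). The ratio of Ebi3 to Il27 was -0.30, 0.21, 1.48 and 1.79 in iKO and 1.03, 1.94, 1.41 and 1.52 in control (difference -0.68, exact permutation p = 0.286, adjusted 0.533). That of Il1rn to Il1b, the antagonist to an agonist of the same receptor, was -1.56, -1.68, -2.89 and -2.73 in iKO and -3.03, -2.39, -3.66 and -3.24 in control (difference 0.86, exact permutation p = 0.114, adjusted 0.457). The ratio of Il15ra to Il15 differed by 0.05 (exact permutation p = 0.914, adjusted 0.914), with iKO samples from -0.99 to -0.30 and control samples from -1.29 to -0.28.

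The genes whose levels most resembled those of the 10 were ranked by Pearson r of log2(CPM + 1) over 16 means, 8 tested classes in each genotype, among 10211 genes. The means share samples and classes, so r is a description. Il18 was most like Lyz2 (lysozyme, 0.954), Dmkn (0.952) and Rgl1 (0.947), and Il1rn most like Tlr13, an RNA sensor of myeloid cells (0.976), Cdc42ep2 (0.974) and Gabarap (0.973). Il15 was most like Zfand3 (0.935), Rhog (0.930) and Cd274, which encodes the checkpoint ligand PD-L1 (0.925). Il27 was most like Ly6i (0.911), Hmga1 (0.909) and Oas1g, an interferon-induced gene (0.904), and Il18bp most like Mvp (0.934), Sppl2a (0.931) and Tspo (0.910). Il15ra was most like Tmsb4x (0.900), Mrpl14 (0.893) and Med11 (0.891), Ebi3 most like Ston2 (0.860), Snx20 (0.844) and Plgrkt (0.833), and Tgfb1 most like Tram2 (0.935), Nln (0.933) and Rbfa (0.922). Il10 was most like Rln3 (0.903), Tnfrsf8, which encodes the activation receptor CD30 (0.865), and Actg2 (0.842). Tnfsf13b stayed under 10 CPM in every mean and was not ranked.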

How the data were processed

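Leukocytes of 8 hashtagged samples, 4 per genotype in 1 pool each, were profiled by 3′ single-cell RNA sequencing. The deposited matrices hold raw UMI counts per gene and cell. Cell Ranger 7.1.0 and GRCm39 are given in the submitters' processing notes; how cells were assigned to hashtags is not stated there. The 10 genes and all gene lists were chosen with earlier results of these data known.

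Cells with at least 300 genes and at most 10% mitochondrial UMIs were kept, and doublets (Scrublet as run in scanpy 1.11.5, expected rate 0.06, score over 0.25) were removed: of 23731 barcodes, 1241 and 438 were removed. No barcode was shared within a pool, and 45 were shared between pools. Clusters came from 2000 variable genes, 30 components, 20 neighbours and Leiden resolution 2 (leidenalg 0.10.2), without the 10 genes, the list around them and the interferon-induced genes. A cluster was named from at least 3 markers detected in 10% of cells of some cluster. The resolution and these naming thresholds were revised 3 times after clusters were seen, before levels of the 10 genes and genotype tests were.

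UMIs were summed per sample and class (at least 20 cells, at least 3 samples per group) and tested with edgeR 4.0.16 (R 4.3.3; quasi-likelihood, TMM, filterByExpr), with Benjamini-Hochberg adjustment over all genes tested and a threshold of 0.05. The SE is the log2 fold change over the square root of F. The scripts were tested on simulated data. CPM are a gene's UMIs per 1000000 of the summed profile. Ratios had 1 added to each count. Single values were compared by two-sided exact permutation tests (scipy 1.17.1), for which 4 against 4 samples allow no p under 0.0286. Named were the 10 genes, the 3 genes most like each of them among those of at least 10 CPM, and at most 20 called genes of the list around them. Of that list, 1 called gene is counted but not reported here by name. Alternatives were DESeq2 1.42.0, RLE scaling, no low-count filter, the replicate number as a block, doublets kept, another resolution, a single-cell gate, C1q-high or C1q-low cells, thinned cells and each sample left out in turn. Leaving out iKO 1 and 2 together, and the alternatives for the lymphoid classes and for the list around the genes, were added after seeing the data.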

Additional observations from a re-analysis of the deposited data

Results flagged for a closer look

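Of 98 groups of 4 samples, 7 held a sample whose gap to its nearest neighbour, over the range of the group, passed Dixon's 95% limit for 4 values. Chance alone gives this in about 1 of 20 groups.

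Ebi3 accounted for 3 of them, each in a Trex1 iKO group. It was at 29.3 CPM in iKO 2 in monocyte/macrophage-like cells (other iKO samples 26.5 to 26.9), at 46.9 in iKO 1 in cDC2-like cells (others 26.5 to 27.3) and at 91.4 in iKO 1 in mature DC-like cells (others 48.2 to 54.0). Il1rn in cDC2-like cells was at 166 CPM in iKO 1 (others 91.9 to 104). Il27 in monocyte/macrophage-like cells was at 9.04 CPM in control 1 (other controls 4.44 to 5.06). In mature DC-like cells Il10 was at 1.51 CPM in control 4 and Tnfsf13b at 1.48 CPM in iKO 4, with the other samples of each group at 0.

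The genotype difference of Il15 was called different between monocyte/macrophage-like and CD8 T-like cells, by 2.37 on the log2 scale in the test of the difference itself (edgeR adjusted p 0.0462). The call was lost in 6 of the 8 fits that left out 1 sample. Il15 was near absent on the CD8 T-like side, found in 0.762% of thinned cells against 1.23% of thinned B-like cells. It could pass the low-count filter by its level in monocyte/macrophage-like cells alone, so no class difference is concluded from this call.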

How the results depend on the processing

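Of 517 alternatives for 32 fold changes, 491 kept the sign, and for 21 fold changes every alternative did. In monocyte/macrophage-like cells 2 of the 10 genes were called; the number was 6 with DESeq2, 4 without the low-count filter, 4 in C1q-low cells, 1 in the single-cell gate (3274 cells, holding 32.7% of the class), 0 in C1q-high cells and 1 to 7 when 1 sample was left out. The genes added by DESeq2 were Il15, Il15ra, Il27 and Il10. The share of all tested genes called is not given for these alternatives, so their counts have no background. In cDC2-like cells (1 called) the number was 3 with DESeq2 and without the filter and 0 to 3 when 1 sample was left out, in mature DC-like cells (0 called) it was 1 without the filter and 0 to 1, in neutrophil-like cells (1 called) 2 without the filter and 1 to 1, and in lymphoid classes (0 called) 1 without the filter, Il10 in Treg-like cells, and 0 to 0. Without iKO 1 and 2 together, edgeR called 0 in monocyte/macrophage-like, cDC2-like, mature DC-like and neutrophil-like cells, with 3, 1, 0 and 2 at an unadjusted p under 0.05. The cause was not tested.

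Of the list around the genes (8 higher, 3 lower) the calls were 3 and 1 in the gate, 0 and 1 in C1q-high cells, 0 and 1 without iKO 1 and 2, and 2 to 11 and 2 to 4 when 1 sample was left out; in C1q-low cells 1 was lower. Differences of the genotype effect called without the filter were 1 against cDC2-like, 2 against mature DC-like, 1 against neutrophil-like, 2 against CD8 T-like, 1 against CD4 T-like and 3 against Treg-like cells; leaving out 1 sample gave 0 to 1 against CD8 T-like cells. Co-detection differences without thinning were 4.38 (Il15 with Il15ra), 4.59 (Il27 with Ebi3) and 14.7 percentage points (Il18 with Il18bp); leaving out 1 sample gave 0.843 to 1.71, 0.741 to 1.09 and 2.48 to 4.41. The ratio differences then ranged from -0.13 to 0.21 (Il15ra to Il15), 0.18 to 0.90 (Il18bp to Il18), -1.01 to -0.31 (Ebi3 to Il27) and 0.65 to 1.09 (Il1rn to Il1b).

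Over all genes, 1414 were called in monocyte/macrophage-like cells, but 2121 with DESeq2, 595 in the gate, 264 in C1q-high cells, 517, 446, 480, 748 and 562 without iKO 1, iKO 2, control 2, control 3 and control 4, and 240 without iKO 1 and 2. In cDC2-like cells 164 were called, but 340 with DESeq2, 320 without the filter, 13 to 294 when 1 sample was left out and 46 without iKO 1 and 2. In mature DC-like cells 3 were called, but 85, 168, 0 to 38 and 11, and in neutrophil-like cells 105, but 163 with DESeq2 and 367 without the filter.

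Deviations of samples of the same number had an r of 0.21, -0.05, -0.05 and 0.21. No r of samples of different numbers was computed as a reference, so these values cannot decide whether the numbers pair samples. With the replicate number as a block, 4 of the 10 genes were called in monocyte/macrophage-like and 3 in cDC2-like cells, and over all genes 252 in cDC2-like and 28 in mature DC-like cells. The class with the highest level became mature DC-like for Il18bp and Il27 with TMM-scaled totals, and Treg-like for Ebi3 with doublets kept. The alternatives for cDC1-like and pDC-like cells were not run, since too few samples held 20 cells.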
